A study of Rattus norvegicus with 6 samples.

Results

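Amino acid transporters were examined in primary oligodendrocytes, the myelin-forming glia of the brain, cultured from rats at postnatal day 1. They were 10 genes chosen by exact symbol from the 20422 genes of the deposited expression table, and each matched 1 entry. The set holds neutral, cationic and cystine carriers and the heavy chain that several of them share. Cells received either phosphate-buffered saline (PBS, 3 libraries) or 0.01 mM water-soluble cholesterol (3 libraries), in both cases for 12 h, and poly(A) RNA was sequenced. Both groups were otherwise described alike, with no genotype or strain given. The labels do not say whether the 3 libraries of a group are separate cultures or animals, so the spread behind each p-value is that between these libraries and may be technical. Cholesterol is usually made water-soluble with a cyclodextrin carrier, and cells given the carrier alone were not analysed here.

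Cells cannot make all amino acids, and charged or polar ones cross membranes only through carriers. Slc3a2 (4F2hc, CD98) is a single-pass glycoprotein that transports nothing itself. It binds light chains of the Slc7 family through a disulfide bond and carries them to the surface. Its partners include Slc7a5 (LAT1) and Slc7a8 (LAT2), exchangers of large neutral amino acids, and Slc7a11 (xCT), which imports cystine for glutathione in exchange for glutamate. Slc7a1 (CAT1) takes up arginine and lysine without a heavy chain. Slc1a4 (ASCT1) and Slc1a5 (ASCT2) exchange small neutral amino acids, among them serine, alanine and, for Slc1a5, glutamine. Slc38a1 and Slc38a2 (SNAT1 and SNAT2) are sodium-coupled importers of small neutral amino acids and glutamine, and Slc38a3 (SNAT3) moves glutamine either way across the membrane of astrocytes. When amino acids run short, the transcription factor ATF4 pairs with C/EBP proteins on a composite element, the C/EBP-ATF response element, in carrier genes and in genes of amino acid synthesis.

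RefSeq promoter windows of 300 bases (250 before and 50 after a start, rat assembly GRCr8) were matched for 8 of the 10 genes, with 9 windows because Slc3a2 has 2 starts. No window was available for Slc1a5 or Slc38a3, so these were not searched. The windows of Slc1a4, Slc7a1 and Slc38a1 are shown because, of the 8 genes, these 3 held the letters of the C/EBP-ATF response element, TGATGNAAN on either strand. They lie at chr14:98761513-98761812 on the minus strand, chr12:11664238-11664537 on the plus strand and chr7:129681352-129681651 on the minus strand. Capitals mark that element in all 3, an E-box (CACGTG) in Slc1a4, and an antioxidant response element (TGACNNNGC) in Slc7a1.
Slc1a4: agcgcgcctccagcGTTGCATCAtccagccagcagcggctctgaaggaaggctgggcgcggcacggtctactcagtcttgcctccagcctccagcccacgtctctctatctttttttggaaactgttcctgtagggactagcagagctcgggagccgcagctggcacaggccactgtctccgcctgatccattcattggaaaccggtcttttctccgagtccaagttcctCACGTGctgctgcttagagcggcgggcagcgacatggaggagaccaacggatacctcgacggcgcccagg
Slc7a1: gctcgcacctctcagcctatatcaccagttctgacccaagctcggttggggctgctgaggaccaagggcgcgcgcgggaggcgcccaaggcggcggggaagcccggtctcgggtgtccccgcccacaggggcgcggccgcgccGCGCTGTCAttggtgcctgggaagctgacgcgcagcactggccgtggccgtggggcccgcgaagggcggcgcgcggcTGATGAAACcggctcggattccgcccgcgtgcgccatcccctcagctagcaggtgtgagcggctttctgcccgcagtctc
Slc38a1: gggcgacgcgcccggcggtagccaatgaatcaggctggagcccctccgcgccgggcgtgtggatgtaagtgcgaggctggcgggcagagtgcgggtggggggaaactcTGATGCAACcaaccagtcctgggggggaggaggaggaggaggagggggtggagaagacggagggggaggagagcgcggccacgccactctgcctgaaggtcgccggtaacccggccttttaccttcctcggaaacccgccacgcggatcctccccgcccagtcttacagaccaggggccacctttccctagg
The element starts 236 bases before the RefSeq start in Slc1a4 (as GTTGCATCA, the minus-strand form), 30 bases before it in Slc7a1 (TGATGAAAC) and 142 bases before it in Slc38a1 (TGATGCAAC). Of 33469 rat promoter windows of the same length, 3.97% held TGATGNAAN, 12.1% held TGACNNNGC and 6.42% held CACGTG, each searched on both strands. The E-box also occurred in Slc7a5, and the antioxidant letters in Slc38a2 and in 1 of the 2 Slc3a2 windows. No matches shared bases. The sterol regulatory letters TCACNCCAC, and the liver X receptor repeat of AGGTCA after a spacer of 4 bases, were in none of the 9 windows and in 1.12% and 0.00598% of all windows. The member windows were GC-rich, at 53.3% to 72.3% GC against a median of 51.7% over all windows. A match describes letters in this window and no bound site.

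The libraries held 63769532 to 70878378 counts. Cholesterol against PBS was tested with edgeR's quasi-likelihood test over 16182 genes, with genes called where the p-value, adjusted by Benjamini-Hochberg, was under 0.05. Of all genes tested, 40.3% passed, 20.5% higher and 19.7% lower after cholesterol, and 37.7% of calls rather than 51% were higher when each library was scaled to its median. Oligodendrocyte identity was clear: the 10 listed markers summed to 4757 to 4866 FPKM (fragments per kilobase of transcript, scaled to library depth) in PBS and 7436 to 8507 after cholesterol. The cultures also held astrocyte markers (11 genes, 543 to 550 against 768 to 833 FPKM), microglia markers (14 genes, 258 to 270 against 178 to 235 FPKM) and neuron markers (10 genes, 222 to 236 against 226 to 241 FPKM). Endothelial and mural markers (9 of 10 matched) summed to at most 4 FPKM and fibroblast markers to at most 30.2 FPKM. Precursor markers (7 of 8 matched) summed to 619 to 642 FPKM in PBS and 482 to 563 FPKM after cholesterol. The largest part of that sum was Gpr17 (mean 363 FPKM in PBS, 284 after cholesterol). Taken singly, 4 of the 7 were lower, 2 were higher (Cspg4 and Neu4) and 1 was not called (Pdgfra). No marker found in the table was at 0 in every library. In such bulk RNA, fewer cells of a type and less RNA per cell cannot be told apart.

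After 12 h with cholesterol, 5 of the 10 transporters were lower, 1 was higher and 4 did not pass the test. The glutamine carrier Slc38a3 rose 1.97-fold. The small neutral exchanger Slc1a4 changed by -34.3%, Slc7a8 by -24.0%, Slc7a1 by -16.1%, Slc7a5 by -15.3% and Slc38a2 by -12.0%. The heavy chain Slc3a2, the system A carrier Slc38a1, the glutamine exchanger Slc1a5 and the cystine carrier Slc7a11 did not pass. Against these 6 of 10 members stood the 40.3% of all genes that passed. Of the 8 transporters averaging 5 FPKM or more, 6 passed and 5 were lower. Among all 8535 genes at that level 52.2% passed, with 24.7% of the 8535 higher and 27.6% lower. The median log2 fold change of the 10 was -0.18, against 0.01 over all genes tested. In 6 of 10 members the 3 cholesterol values lay wholly above or below the 3 PBS values. These were the 6 genes that passed, and the groups of the other 4 overlapped. Among all genes tested, called or not, 52.3% were apart in this way (26.6% higher, 25.7% lower).

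**Figure D1:**
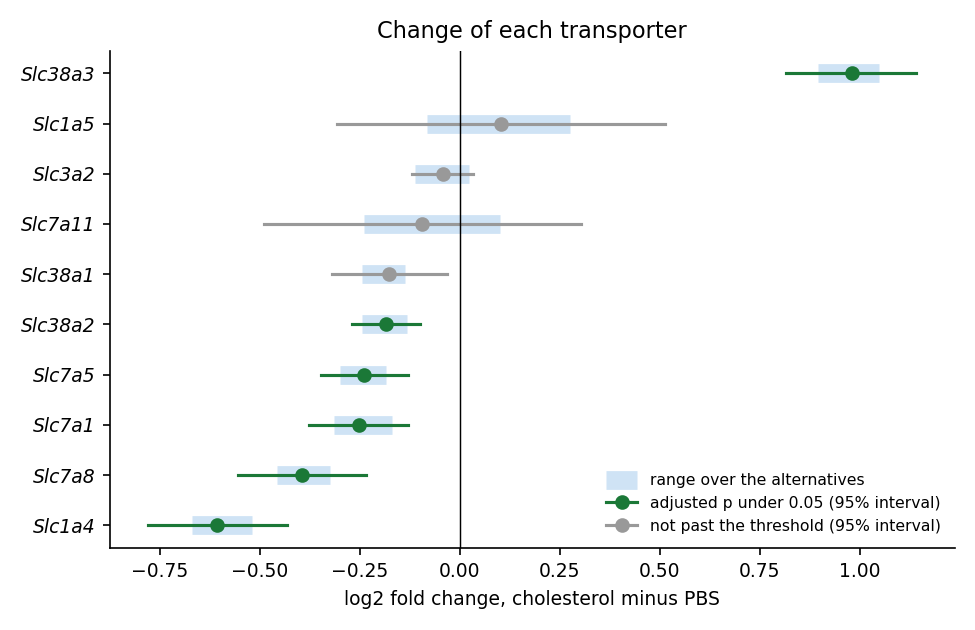
Log2 fold change of each transporter (x axis, cholesterol minus PBS) with its 95% interval from the quasi-likelihood fit; pale bars span the values over the alternative analyses. Slc38a3 stands alone on the right at 0.98, while 5 genes from Slc1a4 (-0.61) to Slc38a2 (-0.18) have intervals below 0 and pass the test.

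Levels were compared per transcript length. Slc3a2 was the most abundant at 99.8 FPKM, 34.2% ± 0.27 of the members' summed FPKM (SD, n = 3), and lay above 97.2% of all genes tested. Slc7a5 followed at 74.4 FPKM and Slc38a2 at 65.8 FPKM, so that these 3 genes made up most of the sum. Slc38a1 came next at 20.5 FPKM, and then Slc7a1 (8.56), Slc1a4 (8.10), Slc38a3 (6.59) and Slc7a8 (5.91 FPKM). Slc1a5 (1.43 FPKM) and Slc7a11 (0.966 FPKM) were the least abundant. Neighbours whose libraries overlapped in PBS were Slc7a1 with Slc1a4, and Slc38a3 with Slc7a8. After cholesterol Slc38a3 moved from place 7 to place 5 at 13.1 FPKM, above Slc7a1 (7.24 FPKM) and Slc1a4 (5.36 FPKM) in every library. By their means the other 9 genes kept their order among themselves. Neighbours whose libraries overlapped after cholesterol were Slc7a5 with Slc38a2, and Slc1a4 with Slc7a8. The sum of the 10 was 284 to 300 FPKM in PBS and 263 to 281 FPKM after cholesterol.

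**Figure D2:**
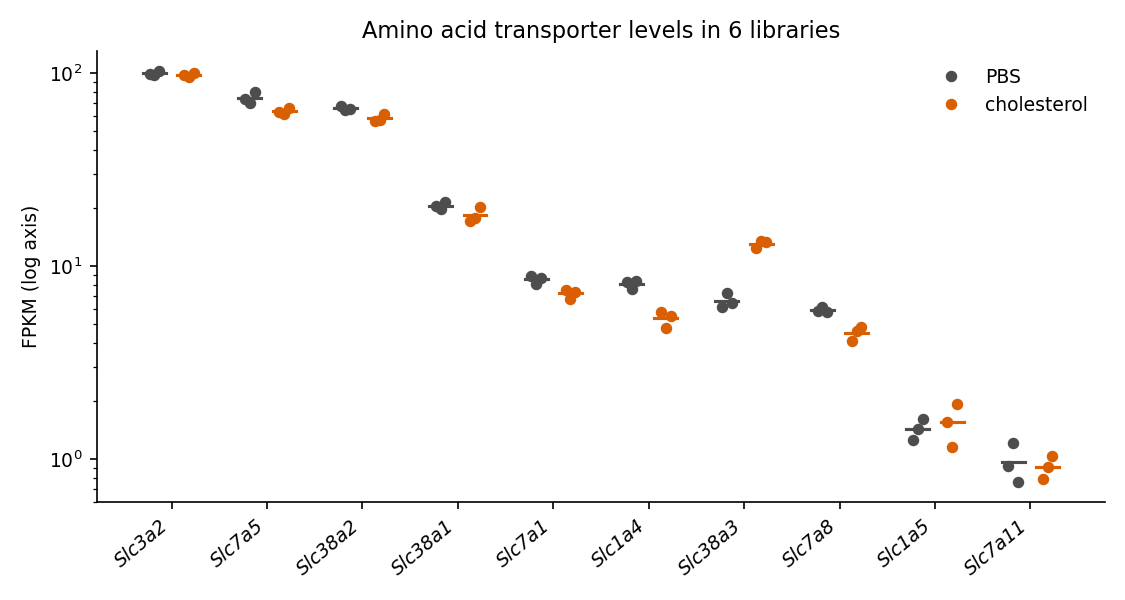
FPKM of each transporter on a log axis, ordered by the PBS mean; points are the 3 libraries of each group and bars their means. PBS means run from 99.8 (Slc3a2) to 0.966 FPKM (Slc7a11), and Slc38a3 is the gene whose cholesterol points stand above its PBS points.

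Among the heteromeric carriers, the light chains Slc7a5 and Slc7a8 fell, while the light chain Slc7a11 and the heavy chain did not pass. Slc3a2 was at 99.2, 98.1 and 102 FPKM in the PBS libraries and 97.8, 95.6 and 99.8 FPKM in the cholesterol libraries. The groups overlapped, and the log2 fold change was -0.04 (95% interval -0.12 to 0.03, adjusted p = 0.363, edgeR). Scaling to the library median gave -0.10 (adjusted p = 0.0428) and a correction for transcript length -0.11 (adjusted p = 0.0290), so a small fall of Slc3a2 depends on the scaling.

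Slc7a5 was at 73.3, 70.2 and 79.5 FPKM in PBS and 63.1, 61.1 and 66.2 FPKM after cholesterol. Every cholesterol library was below every PBS library, and the log2 fold change was -0.24 (SE 0.05, edgeR adjusted p = 0.00307). Slc7a8 was at 5.85, 6.13 and 5.75 FPKM in PBS and 4.11, 4.61 and 4.86 FPKM after cholesterol. Its groups were also apart (log2 fold change -0.40, SE 0.07, edgeR adjusted p = 0.00154).

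Slc7a11, the cystine carrier, was scarce in both groups. Its values were 0.923, 1.21 and 0.764 FPKM in PBS and 0.792, 0.912 and 1.04 FPKM after cholesterol, on 247 to 408 counts. The groups overlapped, and the interval of its log2 fold change ran from -0.49 to 0.30 (adjusted p = 0.712, edgeR). The PBS libraries had an SD of 23.3% of their mean, against 5.52% from counting alone. Its entry spans 554430 bases in the deposited annotation, against 12170 to 75843 bases for the other 9 genes.

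Relative to Slc3a2 in the same library, Slc7a5 fell from 0.744 ± 0.031 to 0.650 ± 0.013 and Slc7a8 from 0.0592 ± 0.0031 to 0.0463 ± 0.0037 (ratios of FPKM, mean ± SD, n = 3), with no overlap between groups. Slc7a11 stood at 0.00971 ± 0.00246 and 0.00935 ± 0.00117. The other known partners Slc7a6 and Slc7a7 (y+LAT2 and y+LAT1, exchangers of cationic for neutral amino acids) and Slc7a10 (Asc-1, a carrier of small neutral amino acids) were added after their values were seen. Slc7a6 was at 0.184 ± 0.013 of Slc3a2 in PBS and 0.139 ± 0.00435 after cholesterol, and Slc7a7 at 0.0611 ± 0.0061 and 0.0419 ± 0.011. Slc7a10 was at 0.00646 ± 0.00068 and 0.00469 ± 0.00097, with overlapping groups. Over all 6 light chains the ratio to the heavy chain was 1.07, 1.05 and 1.08 in the PBS libraries and 0.868, 0.896 and 0.909 in the cholesterol libraries. Summed transcripts of these 6 thus stood slightly above the heavy chain in every PBS library and below it in every cholesterol library. For the 3 member light chains alone the ratio was 0.808, 0.79 and 0.841 in PBS and 0.696, 0.697 and 0.723 after cholesterol. That ratio was below 1 in every library, so the crossing of 1 rests on the chains added later. These are transcript ratios and give no ratio of proteins. Differences in these ratios were not tested.

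**Figure D3:**
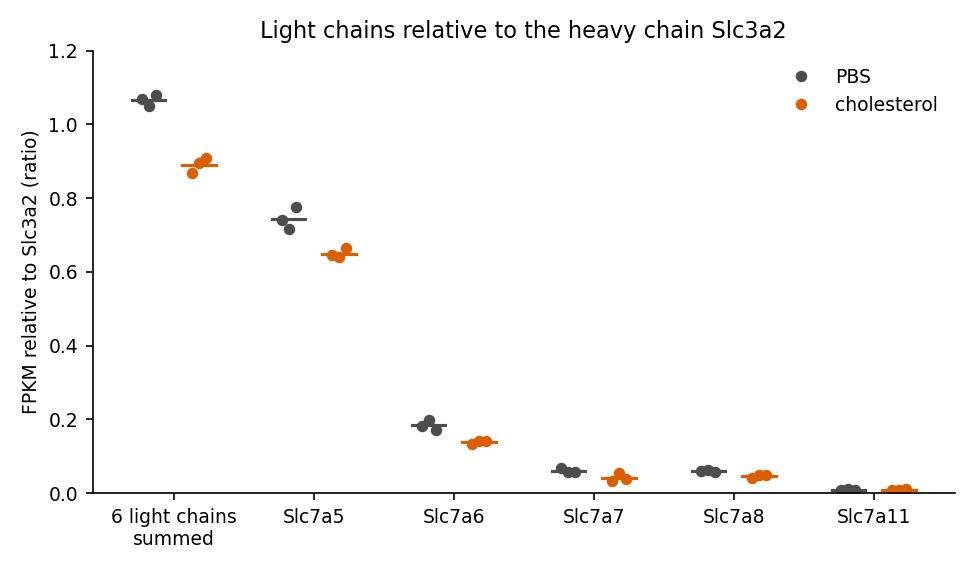
FPKM of the light chains divided by that of the heavy chain Slc3a2 in the same library (y axis, ratio); points are libraries and bars group means. The sum of 6 light chains is 1.05 to 1.08 in PBS and 0.868 to 0.909 after cholesterol, and Slc7a5 makes up most of it.

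Slc7a1, the carrier of arginine and lysine that works without a heavy chain, was at 8.90, 8.10 and 8.70 FPKM in PBS and 7.55, 6.79 and 7.38 FPKM after cholesterol. The groups were apart, at a log2 fold change of -0.25 (SE 0.06, edgeR adjusted p = 0.00454). A related cationic carrier that is no member, Slc7a3 (CAT3), was more abundant than Slc7a1 and fell further, from 38.0 ± 1.88 to 22.5 ± 1.2 FPKM (log2 fold change -0.77, adjusted p = 3.21e-06, edgeR).

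The 2 small neutral exchangers differed in level and in call. Slc1a4 was at 8.27, 7.64 and 8.39 FPKM in PBS and 5.77, 4.79 and 5.52 FPKM after cholesterol. The groups were well apart, and its fall was the largest of the 10, at a log2 fold change of -0.61 (SE 0.08, edgeR adjusted p = 0.000183), while 15.3% of all genes had a larger change in either direction. Slc1a5 was at 1.26, 1.43 and 1.6 FPKM in PBS and 1.56, 1.16 and 1.93 FPKM after cholesterol. Those groups overlapped, the cholesterol libraries enclosed the PBS libraries, and the interval of the log2 fold change was -0.31 to 0.51 (adjusted p = 0.695, edgeR). The Slc1a4 to Slc1a5 ratio was 5.23 to 6.57 in PBS and 2.86 to 4.13 after cholesterol, and the difference between their changes was not tested.

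The sodium-coupled carriers went in different directions. Slc38a2, a carrier known to be induced when amino acids run short, was at 67.6, 64.7 and 65.0 FPKM in PBS and 56.8, 57.0 and 61.3 FPKM after cholesterol. The groups did not overlap, and the log2 fold change was -0.18 (SE 0.04, edgeR adjusted p = 0.00327). Slc38a1 was at 20.5, 19.7 and 21.4 FPKM in PBS and 17.2, 17.7 and 20.2 FPKM after cholesterol. Cholesterol replicate 3 lay within the PBS range, and the log2 fold change of -0.18 ± 0.07 (SE) just missed the threshold (adjusted p = 0.0538, edgeR). Without that library Slc38a1 passed (-0.25, adjusted p = 0.00797), and it passed in 6 of 16 alternative analyses in all. The Slc38a2 to Slc38a1 ratio was 3.04 to 3.30 in PBS and 3.04 to 3.31 after cholesterol. Both genes lie on the minus strand of chromosome 7.

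Slc38a3, the reversible glutamine carrier, was at 6.12, 7.21 and 6.43 FPKM in PBS and 12.5, 13.5 and 13.3 FPKM after cholesterol. All cholesterol libraries were far above all PBS libraries, at a log2 fold change of 0.98 (SE 0.07, edgeR adjusted p = 6.6e-06), and 6.02% of all genes had a larger change. Of all genes tested, 3.6% passed with a change of at least 2-fold, 2.16% upward. Glul, glutamine synthetase, which like Slc38a3 is typical of astrocytes in brain, rose in the same libraries from 157 ± 4.02 to 344 ± 34.5 FPKM (log2 fold change 1.12, adjusted p = 1.6e-06, edgeR). Of 10 astrocyte markers tested, 7 were higher and 2 lower, with a median log2 fold change of 0.66, among them Gfap (1.03), Aqp4 (0.71) and the glutamate transporter Slc1a2 (1.14) upward and Aldoc (-0.38) and Fgfr3 (-0.45) downward. In the fit with a minimum of 5 FPKM, 5 of these markers were tested, of which 3 were higher and 2 lower. Per 100 FPKM of summed astrocyte markers, Slc38a3 stood at 1.13, 1.32 and 1.17 FPKM in PBS and 1.5, 1.73 and 1.73 FPKM after cholesterol. Most of that sum was Gfap (mean 260 FPKM in PBS, 534 after cholesterol) and Aldoc (205 and 159 FPKM). The ratio therefore follows mainly these genes and is no measure of astrocyte content. Of 10 oligodendrocyte markers, 7 were likewise higher and 1 lower, with a median of 0.88, among them Mbp (1.13) upward and Olig2 (-0.35) downward. Which cells carried the added Slc38a3 RNA was not tested. Of 14 microglia markers, 9 were lower and 1 higher, with a median of -0.65, and their part in the falls of the other carriers was likewise not tested.

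**Figure D4:**
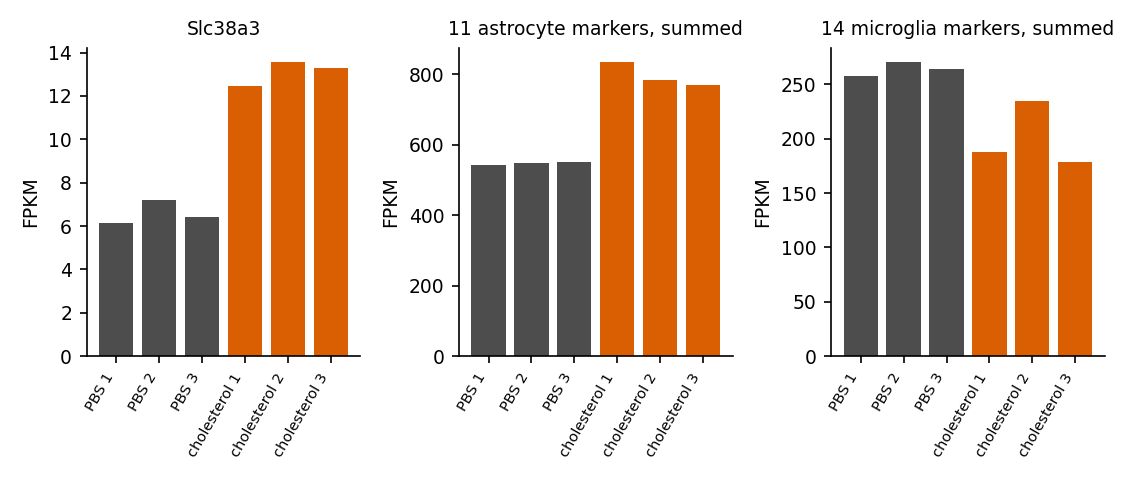
FPKM in each library of Slc38a3, of the sum of 11 astrocyte markers and of the sum of 14 microglia markers (bars start at 0, 1 bar per library). Slc38a3 rises from at most 7.21 to at least 12.5 FPKM. The astrocyte sum, mostly Gfap and Aldoc, goes from at most 550 to at least 768 FPKM, and the microglia sum falls below its PBS range.

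By the closeness of their log2 levels over the 6 libraries, each centred on its own mean, the nearest of 8300 named genes to Slc38a3 were Pbk (distance 0.136), Fam83d (0.146) and Txnip (0.148 log2 units). Pbk and Fam83d are mitotic genes and Txnip a thioredoxin inhibitor that responds to glucose. Pbk went from 14.3 to 27.9 CPM (counts scaled to library depth) and Txnip from 60.8 to 117 CPM. Nearest to Slc1a4 were Dido1 (0.0694), the cadherin Pcdh15 (0.106) and the cadherin Cdh13 (0.130), which went from 138 to 91.8, 78.3 to 53.4 and 98.0 to 65.3 CPM. With 2 groups of 3, the shared group difference dominates such distances.

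The other plasma membrane amino acid carriers showed no common direction. Of 25 tested (27 of 28 listed were found), 3 were higher, 6 lower and 16 not called (36.0% called, against 40.3% of all genes), and their median (0.02) and mean (-0.09) log2 fold changes were opposite in sign. The 3 that rose were Slc1a2 (2.86 ± 0.17 to 6.37 ± 0.60 FPKM), Slc6a11 (GAT3, a GABA carrier, 1.80 ± 0.16 to 3.68 ± 0.29 FPKM) and Slc6a6 (the taurine transporter, 21.9 ± 0.57 to 32.2 ± 1.22 FPKM). Slc1a2 and Slc6a11 are, like Slc38a3, carriers typical of astrocytes. Slc1a3, an astrocyte marker in the same list, was more abundant (33.1 ± 0.85 to 35.9 ± 1.93 FPKM) and did not pass (adjusted p = 0.0849, edgeR). The largest falls above 1 FPKM were those of Slc7a3, Slc7a7 (6.10 ± 0.57 to 4.08 ± 0.98 FPKM) and Slc38a6 (2.64 ± 0.15 to 1.91 ± 0.38 FPKM). Without PBS replicate 1, Slc7a7 no longer passed the test (adjusted p = 0.0553, edgeR). Slc38a6 lost its call without PBS replicate 1 (0.0818), PBS replicate 2 (0.0572) or cholesterol replicate 1 (adjusted p = 0.0581). Without PBS replicate 1 the list held 3 lower genes.

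Carriers of the lysosome, which return amino acids from degraded protein to the cytosol, were lower in 6 of 10 and higher in 0, with a median of -0.32, where 19.7% of all genes were lower. At 5 FPKM or more, 3 of 6 were lower, against 27.6% of all genes at that level. Slc36a1 (PAT1) fell from 5.66 ± 0.11 to 4.19 ± 0.32 FPKM, Slc36a4 (PAT4) from 5.13 ± 0.33 to 3.87 ± 0.24 FPKM and the glutamine exporter Slc38a7 (SNAT7) from 18.6 ± 0.77 to 14.4 ± 0.24 FPKM. With a minimum of 5 FPKM, 3 were lower because fewer genes were tested, and leaving out cholesterol replicate 1 or 2 gave 1 higher gene.

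Of 20 cytosolic aminoacyl-tRNA synthetases, which charge tRNAs with amino acids, 11 were lower and 0 higher, with a median of -0.16, and quantile normalization gave 1 higher. All 20 were at 5 FPKM or more, where 52.2% of all genes were called and 27.6% were lower. Iars1, the isoleucine enzyme, fell from 21.0 ± 0.33 to 14.1 ± 0.15 FPKM (log2 fold change -0.58 ± 0.03, SE, adjusted p = 1.95e-06, edgeR). Its annotated position overlaps 2 other genes, with means of only 0.0336 and 0.0684 FPKM. Cars1 (-0.35) and Eprs1 (-0.34) fell next most.

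The amino acid response list around ATF4, which holds its upstream kinases and its targets, did not move as a block. Of 31 tested, 3 were higher, 7 lower and 21 not called (32.3% called, against 40.3% of all genes), with a median of -0.03. Among those lower were Atf5 (-0.73, overlapping Nup62 at 13.9 FPKM, so less certain if strand was not used), Pycr1 (-0.57) and Aldh18a1 (-0.36), the last pair enzymes of proline synthesis. Phgdh, the entry enzyme of serine synthesis, rose from 41.7 ± 1.24 to 57.7 ± 1.40 FPKM (0.46) and Ddit4, an mTORC1 inhibitor, rose by 0.33 on the log2 scale. The third riser was Cbs, an enzyme that makes cystathionine from homocysteine and serine, at 0.336 ± 0.079 FPKM in PBS and 1.26 ± 0.21 FPKM after cholesterol (1.88), and it was named after its values were seen. Named after their values were seen, Atf4 itself fell from 111 to 88.9 FPKM (log2 fold change -0.34, adjusted p = 6.21e-05, edgeR). Of its classical targets, Asns (-0.11), Trib3 (-0.20), Chac1 (-0.03) and Ddit3 (0.16), also named after their values were seen, did not pass. Trib3 averaged only 0.364 FPKM, and its interval ran from -1.01 to 0.61. Of the 3 carriers whose windows held the C/EBP-ATF letters, Slc1a4 and Slc7a1 fell and Slc38a1 just missed the threshold. Among members whose windows held no such letters, Slc7a5, Slc7a8 and Slc38a2 fell, while Slc3a2 and Slc7a11 did not pass. Sequence outside the windows was not searched, so these genes may hold the letters elsewhere. A link between these letters and the changes was not tested.

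Genes of amino acid sensing by mTORC1 were 5 higher and 8 lower of 31 tested (41.9% called, near the 40.3% of all genes), with a median of -0.07. Rragc, a Rag GTPase that recruits mTORC1 to the lysosome, fell from 53.1 ± 0.39 to 40.9 ± 0.40 FPKM (-0.39) and Fnip2, a folliculin partner, by 0.54 on the log2 scale. Itfg2 (-0.33), Nprl2 (0.29), Lamtor5 (0.23) and Lamtor2 (0.21) also passed, but each lost its call when single libraries were left out. These were PBS replicates 1 and 2 and cholesterol replicate 2 for Itfg2 (adjusted p = 0.0661, 0.0907 and 0.0688), and PBS replicate 3 for Nprl2 (0.0526). For Lamtor5 they were PBS replicate 1 (0.0648) and cholesterol replicate 1 (0.0547). For Lamtor2, whose position overlaps Ubqln4 at 20.3 FPKM, they were PBS replicates 1 and 3 and cholesterol replicates 2 and 3 (0.0834, 0.134, 0.112 and 0.0648). The balance depended on scaling, with 2 higher and 15 lower under the library median. Without PBS replicate 1 it was 2 and 5, without PBS replicate 2 there were 5 lower, and without PBS replicate 3 there was 1 higher. Leaving out cholesterol replicate 1 or 2 left 2 or 3 higher, and the length correction 3.

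In the cystine and glutathione list, 6 of 19 were higher and 4 lower (52.6% called, against 40.3% of all genes; median -0.05, mean 0.18), while the cystine carrier Slc7a11 was not called. Of those above 1 FPKM, Nqo1, a quinone reductase, rose most (4.11 ± 0.58 to 15.3 ± 2.31 FPKM, log2 fold change 1.88), followed by Gss, glutathione synthetase (0.61), and Cbs counts here too. Hmox1, haem oxygenase (-0.74), Gclm, the modifier of the first glutathione enzyme (-0.45), and Bach1, a repressor of Hmox1 (-0.39), fell. Keap1, which marks the antioxidant regulator NRF2 for degradation, rose by 0.18 on the log2 scale. Of 18 enzymes of glutamine, serine and branched-chain metabolism, 5 were higher and 2 lower (38.9% called; median 0.06, or 8 higher under quantile normalization). Besides Glul and Phgdh, Shmt1 rose (0.28), and Odc1, the first enzyme of polyamine synthesis, fell (-0.22). Shmt1 overlaps Smcr8 at 9.62 FPKM, and it did not pass without PBS replicate 1 (0.0561) or PBS replicate 3 (adjusted p = 0.0534).

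**Figure D5:**
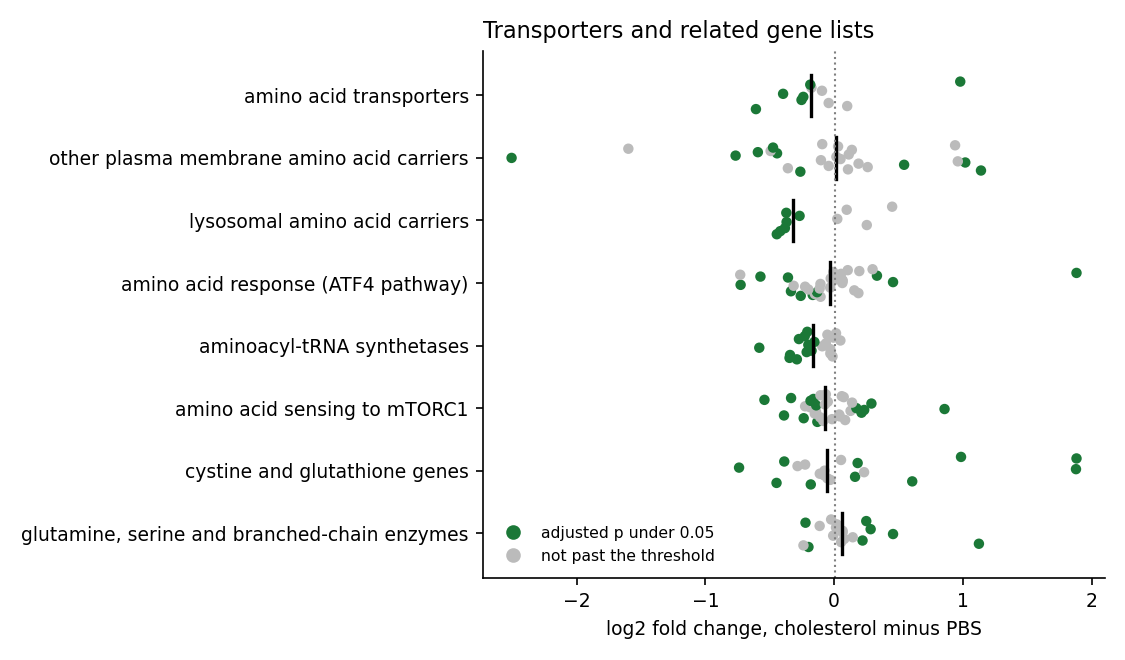
Log2 fold change (x axis, cholesterol minus PBS) of every tested gene of the transporter set and 7 related lists; green points pass the test, black bars are list medians and the dotted line is the median of all genes (0.01). Of the transporters (median -0.18) 8 of 10 lie left of 0, of the tRNA synthetases (-0.16) 18 of 20 and of the lysosomal carriers (-0.32) 6 of 10.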

How the data were processed

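RNA of 6 libraries was analysed, grouped by sample title. The authors deposited whole-number counts per Ensembl gene beside FPKM, per the file headers. Build rn6 and the tools StringTie 2.1.6, HISAT2 2.2.1, edgeR, cutadapt 1.9 and DESeq2 are listed in the submitters' processing notes, with no role for each. The second strand was marked with dUTP, per the labels' protocols. The sources used here give neither the annotation nor whether counting used strand, and gene ends in the table did not settle the build, so deposited coordinates served only to find overlapping genes (none overlaps a transporter).

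The test was that of edgeR 4.0.16 (R 4.3.3) on the counts (filterByExpr, keeping 16182 genes and leaving out 4240, TMM scaling, quasi-likelihood test, two-sided, no replicate term, adjusted over all genes tested). All 10 members passed the filter. The SE is the log2 fold change divided by the square root of F. Levels are the deposited FPKM, mean ± SD over 3 libraries. At 3 counts the floor is 0.0423 to 0.047 CPM, for counting error only. The script was tested on simulated data.

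Members and gene lists were chosen with earlier results of these data known. Named genes are the members and, per list, up to 3 called genes in each direction with the largest change and a mean of at least 1 FPKM; 1 gene so chosen is not reported here. The 3 nearest genes were taken for the largest rise and fall among genes of at least 5 FPKM. The 16 alternatives changed the filter, scaling, test (DESeq2 1.42.0 and limma 3.58.1, the latter also on log2(FPKM + 1) and log2(FPKM + 0.1)), length correction, replicate block or libraries used.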

Additional observations from a re-analysis of the deposited data

How the results depend on the processing

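The count of transporters called stayed at 1 higher and between 5 and 7 lower over all 16 alternatives, and that of all genes at 2396 to 3375 higher and 2324 to 4158 lower. Of 158 refitted values for the 10 members, 146 kept their direction and call, 8 newly passed (Slc38a1 and Slc3a2) and 4 turned sign without passing. These were Slc1a5 (-0.04 under quantile normalization with limma voom and -0.081 without cholesterol replicate 3), Slc3a2 (0.023 under quantile normalization) and Slc7a11 (0.1 without PBS replicate 2). Leaving out 1 library at a time, Slc1a5 ranged from -0.081 to 0.276 and Slc7a11 from -0.24 to 0.1. The causes were not tested. Of 33 other named genes, 7 lost their call in at least 1 alternative, and all kept their direction. Without 1 library at a time the members' median was -0.23 to -0.15.

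Same-numbered libraries deviated from their group means with correlations of 0.189, 0.152 and -0.220, and differently numbered ones with -0.338 to 0.216. These values show no consistent pairing by replicate number, but with 3 libraries per group they cannot exclude it. With the replicate block 3165 genes were higher and 3056 lower, and of the transporters 1 was higher and 6 lower, Slc38a1 passing (adjusted p = 0.0374). Slc7a11 and Slc1a5 rest on 240 to 408 counts per library, where counting alone gives 5.52% to 5.87% of the mean, and their libraries had SDs of 11.9% to 24.6%.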
